A study of Mus musculus with 8 samples.

Results

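Chromatin accessibility was examined at 5 genes of the negative limb of the circadian clock, Per1, Per2, Per3, Cry2 and Ciart. Every region that the deposited ATAC-seq table annotates to these genes was taken, 77 of 489637 regions, at 5 of 27552 genes. Per2 had 26 regions, Per3 had 18, Per1 had 16, Cry2 had 14 and Ciart had 3. ATAC-seq marks open chromatin by the places where a transposase can insert sequencing adapters, and nuclei were prepared from the gastrocnemius, a calf muscle, of mice labelled 6 months. All 8 libraries came from mice of the genotype Cre+:iMSBmal1 fl/fl, which carry a Cre transgene and floxed copies of Bmal1, a gene the table lists as Arntl. The 4 vehicle libraries came from mice given Vehicle, and the 4 iMSBmal1KO libraries from mice given Tamoxifen. Treatment and knockout therefore cannot be told apart in this design. The labels do not name the promoter that drives Cre, the time of day at which the muscle was taken or the mice from which each library was made. P-values measure only the spread between these libraries.

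In the circadian clock, BMAL1 pairs with CLOCK or NPAS2, binds E-box sequences and activates transcription of the Per and Cry genes. The PER and CRY proteins accumulate, return to the nucleus and repress the BMAL1 complex that drove their own genes, which closes a daily loop that also runs in skeletal muscle fibres. PER proteins act as the scaffold of the repressor complex, CRY2 holds the BMAL1 complex inactive, and CIART, also called CHRONO, is a further repressor that binds BMAL1.

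The upstream promoters of 4 of the genes are shown because a region at an annotated start of each gene lies on them. E-boxes are also the sequences that BMAL1 complexes bind. For Per1 the window is at its downstream start, which is not its most accessible region. No promoter sequence was available for Per2, so Per2 was not searched. Each line gives the 250 bases before an annotated start from RefSeq (GRCm38.p6), 5′ to 3′ on the strand of the gene. Capitals mark an E-box (CACGTG), an E′-box (CACGTT or its reverse AACGTG) or a D-box (TTATGTAA or its reverse TTACATAA), the last a sequence bound by PAR bZIP factors. A CRE (TGACGTCA) was searched for too and had no match in these windows. Both strands were searched, and no match overlapped another.
Ciart: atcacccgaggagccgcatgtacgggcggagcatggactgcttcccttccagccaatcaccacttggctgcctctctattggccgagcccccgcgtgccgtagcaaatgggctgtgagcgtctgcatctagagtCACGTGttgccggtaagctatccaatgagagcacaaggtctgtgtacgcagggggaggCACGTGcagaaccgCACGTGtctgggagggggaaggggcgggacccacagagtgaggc
Per1: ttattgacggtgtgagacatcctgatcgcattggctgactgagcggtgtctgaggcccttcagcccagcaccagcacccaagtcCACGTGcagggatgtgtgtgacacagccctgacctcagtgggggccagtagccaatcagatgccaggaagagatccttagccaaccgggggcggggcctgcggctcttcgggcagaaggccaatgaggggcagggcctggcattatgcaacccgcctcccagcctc
Cry2: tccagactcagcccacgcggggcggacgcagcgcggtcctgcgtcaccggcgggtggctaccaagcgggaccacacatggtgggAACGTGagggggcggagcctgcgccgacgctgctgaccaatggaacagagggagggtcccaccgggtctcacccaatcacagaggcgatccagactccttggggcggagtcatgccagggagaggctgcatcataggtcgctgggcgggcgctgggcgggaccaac
Per3: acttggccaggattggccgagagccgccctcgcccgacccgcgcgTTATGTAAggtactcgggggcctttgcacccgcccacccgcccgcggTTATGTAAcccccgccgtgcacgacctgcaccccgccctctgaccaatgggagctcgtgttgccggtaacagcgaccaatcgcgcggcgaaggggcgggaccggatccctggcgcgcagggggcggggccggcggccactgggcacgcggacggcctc

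The Ciart window (chr3:95882229-95882478, minus strand) held 3 E-boxes, at -116 to -111, -58 to -53 and -44 to -39 counted from the start. Of 32851 RefSeq mouse promoters of the same length, 6.02% held an E-box and 0.0609% held at least 3. The Per1 window (chr11:69098699-69098948, plus strand) held 1 E-box, and a second annotated Per1 window (chr11:69099902-69100151) held none of the motifs. The Cry2 window (chr2:92434070-92434319, minus strand) held 1 E′-box, a motif found in 3.85% of the promoters. The Per3 window (chr4:151044666-151044915, minus strand) held 2 D-boxes, and 0.819% of the promoters held any. For a CRE the share was 1.55%. The Ciart, Cry2 and Per3 windows lay within a single accessible region of the table along all of their 250 bases, and 188 bases of the Per1 window did. A match is a description of the letters and does not show that a factor was bound.

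Depth was 4.31 to 19.7 M read equivalents per vehicle library and 11.2 to 29.5 M per iMSBmal1KO library (M, 1000000). A read equivalent is the deposited signal divided by the step that 1 read was worth in that library. Vehicle replicate 4 stood apart, with the lowest depth, 24.9% of all regions at 0, a mitochondrial share of 16.5% against 1.11% to 5.51% in the other libraries, and correlations across regions of 0.80 to 0.85 with the other libraries. Estimates without it are given for the regions named by rule and for the sums. Accessibility at Arntl does not check the knockout, because the labels do not name the floxed part. The Arntl regions summed to 1942 to 2688 with vehicle and to 3023 to 3421 after knockout. Markers of muscle fibres carried most of the marker signal, 8370 to 14442 summed over the promoters of 6 genes in vehicle and 11389 to 13193 in iMSBmal1KO. The corresponding sums over 3 genes each were 360 to 542 and 411 to 559 for fibro-adipogenic cells, 3.13 to 7.46 and 5.14 to 12.5 for macrophages, and 9.25 to 19.7 and 10.7 to 15.5 for adipocytes. Adgre1, Cd3e, Adipoq, Cidec, Rgs5 and Calcr had no promoter region in the table. The other sums were 59.7 to 90.7 and 66.5 to 89.9 for endothelial cells, 84.2 to 123 and 85.9 to 107 for satellite cells, 65.7 to 89.0 and 69.2 to 92.0 for smooth muscle cells, and 57.2 to 69.9 and 42.9 to 83.9 for lymphocytes. The groups overlapped in each of these sums, and their part in the results was not tested. In bulk muscle, fewer nuclei of a type and less accessible chromatin per nucleus cannot be told apart.

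Most tested regions of the negative limb genes had a lower signal in iMSBmal1KO, and 1 of them, in Per2, passed the test. The filter on low signal left 39 of the 77 regions for testing, 13 of Per1, 11 of Per2, 8 of Cry2, 5 of Per3 and 2 of Ciart. Of these 39 regions, 36 had a negative log2 change (iMSBmal1KO over vehicle, on log2(signal + 1)), against 47410 of all 124901 tested regions. The median was -0.35 against 0.12 over all tested regions. With median-of-ratios scaling, which moved the median of all tested regions to 0.01, the median of the 39 was -0.46. The Per2 region was lower at a limma adjusted p under 0.05, and none of the 39 was higher. Over all tested regions 0.0881% passed this threshold in either direction and 0.0568% passed it as lower and 0.0312% as higher. At an unadjusted p under 0.05, 10 of the 39 regions were lower and 0 higher, against 2.63% of all tested regions lower and 6.59% higher. In 7 of the 39, every iMSBmal1KO value lay below every vehicle value, against 1.87% of all tested regions. None of the 39 had the reverse order, which 3.62% of all tested regions had. The 39 regions are not independent, since 29 of the 77 abut another region and the regions of a gene can move together. The filter counted libraries of either group, so a region could enter the test through the group where it was high. The Cry2 region at chr2:92404553 and the Per3 region at chr4:151045391 entered through vehicle, and both are among the 36, the 10 and the 7.

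All 20 tested regions within 1000 bp of an annotated start had a negative log2 change, from -0.93 to -0.01, and 10 of them were of Per1. Over the 37793 such regions tested, 12334 were negative. The median of the 20 was -0.35 against 0.15 over the 37793. Farther from a start, 16 of 19 were negative, against 24297 of 58823 such regions, with a median of -0.40 against 0.09. The 3 regions with a positive change were 2 of Cry2 and 1 of Per2, with limma adjusted p from 0.638 to 0.841. The 38 untested regions were weak, with a mean signal of 0.955 to 11.1, and 24 of them had the lower mean in iMSBmal1KO. Among the 38, 2 Per3 regions had all iMSBmal1KO values above all vehicle values. At chr4:151017487 the mean was 4.41 against 10.1, on 1 to 8 vehicle reads and 6 to 32 iMSBmal1KO reads per library. At chr4:151017549 it was 2.99 against 4.86, on 1 to 4 and 3 to 9 reads. A Per2 region at chr1:91422872 had the reverse order, 4.04 against 0.423, on 1 to 9 and 0 to 2 reads. The share of all untested regions with either order was not computed.

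**Figure D1:**
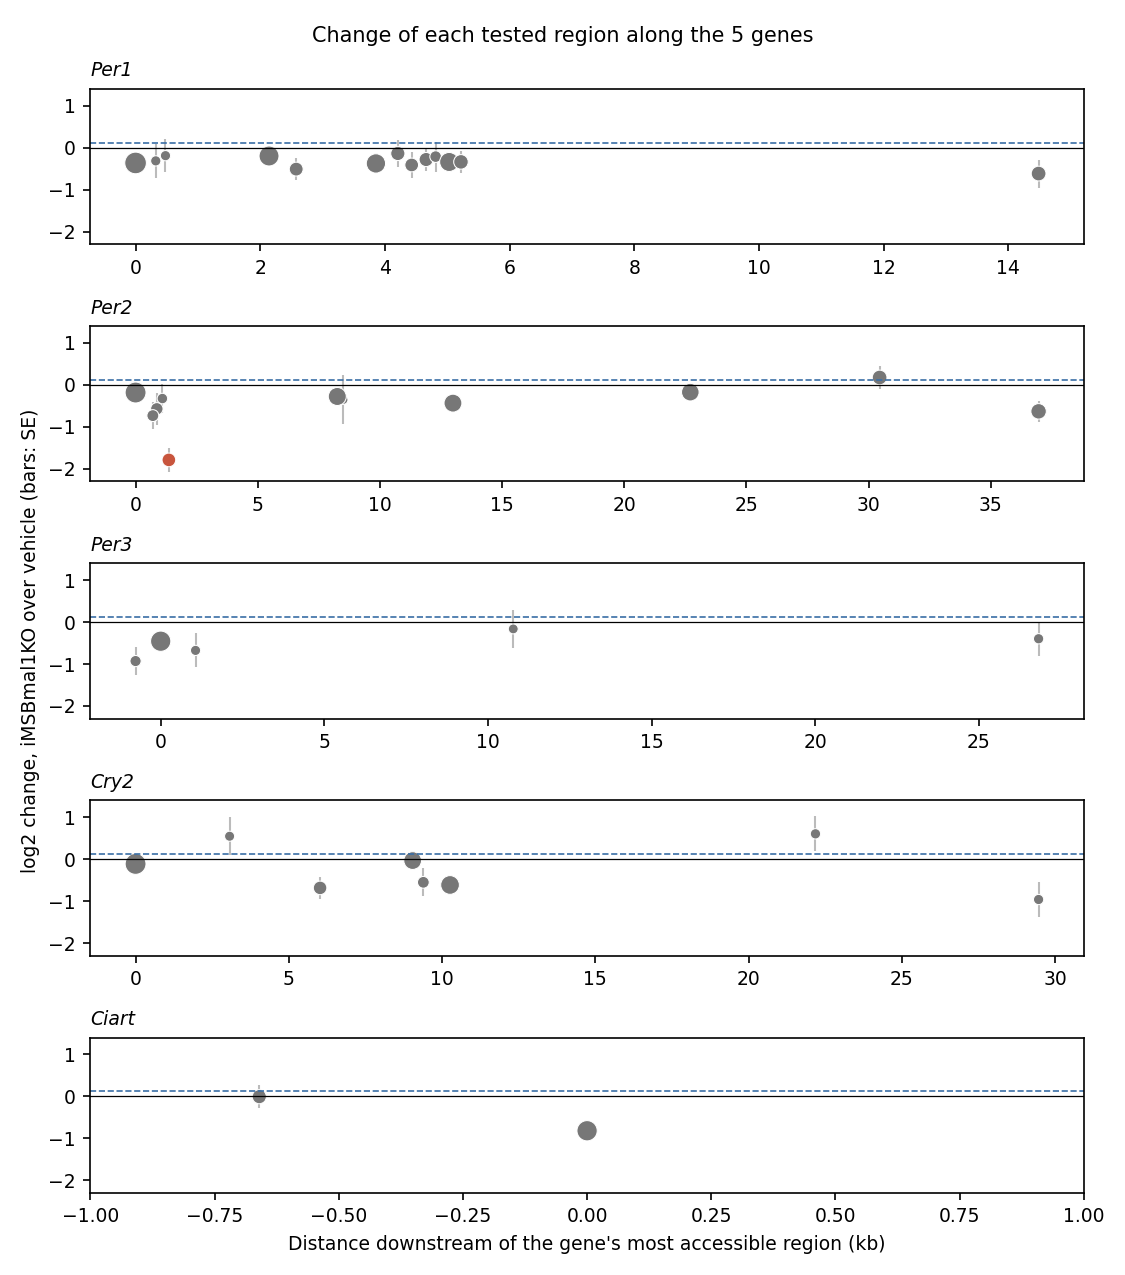
Log2 change of each tested region (iMSBmal1KO over vehicle, vertical axis) against its distance downstream of the most accessible region of the gene (kb, horizontal axis), with SE bars. Larger points have a higher mean signal, the red point is the Per2 region past the threshold, and the dashed line is the median of all tested regions, 0.12, below which 36 of the 39 points lie.

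Per1 had the most accessible start region of the 5 genes in both groups. Per length, the Per1 region at chr11:69094744-69095327 had the highest vehicle signal, 278 ± 48.8 per 100 bp (SD, n = 4). Its lowest vehicle library lay above every vehicle value of the other start regions. The second Per1 start region followed at 175 ± 46.7, then those of Cry2 at 136 ± 18.9, Per2 at 116 ± 25.8, Ciart at 86.2 ± 21.3 and Per3 at 83.5 ± 15.6 per 100 bp (SD, n = 4 each). From the second Per1 region on, each neighbour in this order overlapped the next. In iMSBmal1KO the means were 216, 134, 126, 102, 47.7 and 60.6 per 100 bp for the same regions, so that Ciart stood below Per3. The ranges of those 2 genes overlapped in iMSBmal1KO, and the Per3 values there lay below all Per2 values.

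Per1, whose transcription also responds quickly to signals such as glucocorticoids, had 13 tested regions, all with a negative log2 change, from -0.61 to -0.14. Its most accessible region, the upstream of its 2 start regions, read 2049, 1518, 1472 and 1454 in the vehicle libraries, in the order of their replicate numbers, against 1262, 1505, 1066 and 1204 after knockout. Values are listed in this order throughout. The groups overlapped, through iMSBmal1KO replicate 2 alone. The means were 1623 ± 285 and 1259 ± 183 (SD, n = 4 each), or -0.36 ± 0.17 on the log2 scale (SE, limma adjusted p = 0.539), and -0.41 without vehicle replicate 4. With each library left out in turn it ran from -0.45 to -0.24, the latter without vehicle replicate 1. At the downstream start, which carries the E-box shown above, the region chr11:69098761-69099022 read 595, 429, 506 and 306 in vehicle and 262, 472, 354 and 321 in iMSBmal1KO. These values overlapped widely (log2 change -0.37 ± 0.23 SE, limma adjusted p = 0.599). A region 1754 bp into the gene, chr11:69096971-69097382, differed least among the strong Per1 regions, from 608 ± 73.8 to 534 ± 98.2 (SD, n = 4 each), or -0.20 ± 0.19 on the log2 scale (SE, limma adjusted p = 0.732). At the transcript end, chr11:69109327-69109719, the 4 vehicle values lay between 57.5 and 64.2, and the iMSBmal1KO values were 16.7, 50.2, 69.2 and 37.6. That region had the most negative Per1 estimate, -0.61 ± 0.33 (SE, limma adjusted p = 0.571).

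Summed over its 16 regions, Per1 gave 4043, 3251, 3439 and 2961 in vehicle and 2522, 3357, 2567 and 2473 in iMSBmal1KO. Of the iMSBmal1KO libraries, 3 lay below the lowest vehicle library, and replicate 2 lay among the vehicle values. Mean sums were 3424 ± 457 and 2730 ± 420 respectively (SD, n = 4 each), 20.3% lower after knockout, or -0.33 ± 0.14 on the log2 scale (SE, limma adjusted p = 0.511).

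Per2, a main scaffold of the repressor complex, had the only member region past the threshold. This region, chr1:91457888-91458059, is 172 bp long, lies 1265 bp downstream of the start and is annotated by the table as 5′ UTR exon, a label not checked against exon models here. The vehicle libraries read 75.7, 47.3, 55.9 and 37.5, and the iMSBmal1KO libraries 16.7, 15.9, 11.9 and 13.8. Every iMSBmal1KO value was less than the lowest vehicle value, and the vehicle values were the more spread. The mean went from 54.1 ± 16.2 to 14.6 ± 2.15 (SD, n = 4 each), 73.1% lower, or -1.79 ± 0.29 on the log2 scale (SE, limma adjusted p = 0.0145). It rested on 12 to 88 reads per vehicle library and 10 to 39 per iMSBmal1KO library. Without vehicle replicate 4 the log2 change was -1.94 (limma adjusted p = 0.0015), and the call was lost without vehicle replicate 1, vehicle replicate 3, iMSBmal1KO replicate 3 or iMSBmal1KO replicate 4 (limma adjusted p = 0.119, 0.0868, 0.0789 and 0.055). The RefSeq lncRNA gene Gm35591 lies 117 bases from this region.

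The 3 tested regions between that Per2 region and the start region had smaller negative estimates. The region at chr1:91458183-91458294 went from 13.98 ± 2.23 to 10.9 ± 1.14, that at chr1:91458401-91458532 from 25.8 ± 7.04 to 18.5 ± 10.1, and that at chr1:91458583-91458676 from 23.7 ± 7.39 to 13.6 ± 2.72 (SD, n = 4 each). Only the last of these had groups that did not overlap, with 18.1 to 34.4 in vehicle and 11.3 to 17.5 in iMSBmal1KO (log2 change -0.73 ± 0.32 SE, limma adjusted p = 0.523). The start itself, chr1:91458896-91459777, was the most accessible Per2 region and read 1322, 1019, 1003 and 766 in vehicle and 949, 1096, 763 and 787 in iMSBmal1KO. Its groups overlapped, and the estimate was -0.18 ± 0.19 on the log2 scale (SE, limma adjusted p = 0.758). Its size rested on single libraries. Leaving out vehicle replicate 4 gave -0.31 and vehicle replicate 1 gave -0.05, while leaving out iMSBmal1KO replicate 2 gave -0.28 and iMSBmal1KO replicate 3 gave -0.11. In intron 19, chr1:91422117-91422649, 69.9 to 105 in vehicle stood against 46.0 to 65.6 in iMSBmal1KO, without overlap (log2 change -0.63 ± 0.24 SE, limma adjusted p = 0.490). The sole Per2 region with a positive estimate was in intron 17, at 47.1 ± 9.99 and 54.0 ± 14.6 (SD, n = 4 each).

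The 26 Per2 regions together gave 2464, 1972, 2049 and 1613 in vehicle and 1663, 1952, 1546 and 1474 in iMSBmal1KO. The groups overlapped, with 2 iMSBmal1KO libraries below the lowest vehicle library. The estimate was -0.28 ± 0.15 on the log2 scale (SE, limma adjusted p = 0.556), -0.18 without vehicle replicate 1, and the gene as a whole did not pass the threshold that its weak called region passed.

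Per3, which is dispensable for a running clock and is strongly rhythmic in many tissues, had 5 tested regions, all with negative estimates from -0.93 to -0.16. At its start, chr4:151044236-151045163, the signal was 792, 913, 822 and 572 in vehicle and 649, 635, 451 and 516 in iMSBmal1KO. The overlap came from vehicle replicate 4, the library that stood apart, which fell among the iMSBmal1KO values. The mean went from 775 ± 145 to 563 ± 95.5 (SD, n = 4 each), or -0.46 ± 0.19 on the log2 scale (SE, limma adjusted p = 0.511), and -0.60 without vehicle replicate 4 (limma adjusted p = 0.187). Leaving out iMSBmal1KO replicate 3 gave -0.36. A weak region at -725 bp, chr4:151045391-151045544, read 18.1, 19.5, 19.7 and 21.9 in vehicle and 9.42, 7.53, 10.7 and 12.5 in iMSBmal1KO. These groups did not overlap, and the region was 49.2% lower on 7 to 31 reads per library (log2 change -0.93 ± 0.33 SE, limma adjusted p = 0.451, and -0.88 without vehicle replicate 4). Of the iMSBmal1KO libraries, only replicate 4 reached the level of the filter on low signal. This weak region therefore entered the test through the vehicle libraries. Both regions overlap the RefSeq gene Gm38529. The regions more than 1000 bp away summed to 58.6 to 81.3 in vehicle and 51.8 to 78.7 in iMSBmal1KO, so the lower Per3 sum lay at the start.

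Per3 summed over its 18 regions to 893, 1012, 950 and 682 in vehicle and 742, 718, 553 and 615 in iMSBmal1KO. That was 25.7% lower in the mean, or -0.42 ± 0.16 on the log2 scale (SE, limma adjusted p = 0.5005). With median-of-ratios scaling and with loess scaling the promoter sum of Per3 passed the threshold (log2 change -0.62 in both, limma adjusted p = 0.0124 and 0.0126).

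Cry2, a direct repressor of the BMAL1 complex, showed little difference at its start. The region chr2:92433773-92434488 read 1110, 945, 1033 and 794 in vehicle and 960, 1053, 698 and 892 in iMSBmal1KO. The groups were interleaved. The estimate was -0.11 ± 0.18 on the log2 scale (SE, limma adjusted p = 0.849), with -0.21 without vehicle replicate 4, -0.19 without iMSBmal1KO replicate 2, -0.04 without vehicle replicate 1 and 0.0042 without iMSBmal1KO replicate 3. Within the gene, intron 3 held the smallest Cry2 p-value, at chr2:92423664-92424079, where the signal was 448, 286, 418 and 291 in vehicle and 229, 237, 178 and 292 in iMSBmal1KO. Only iMSBmal1KO replicate 4 reached the vehicle range. The mean there went from 361 ± 84.1 to 234 ± 46.9 (SD, n = 4 each), or -0.61 ± 0.22 on the log2 scale (SE, limma adjusted p = 0.453), and -0.71 without vehicle replicate 4. Leaving out iMSBmal1KO replicate 3 gave -0.49. RefSeq places the lncRNA gene D930015M05Rik over this region.

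In Cry2 intron 1, chr2:92428059-92428163, the vehicle libraries held 37.5 to 45.8 and the iMSBmal1KO libraries 22.6 to 29.1, without overlap (log2 change -0.68 ± 0.26 SE, limma adjusted p = 0.492). At a transcript end, chr2:92404553-92404789, the values were 10.3 to 28.1 and 5.14 to 8.78, again without overlap, on 6 to 21 reads (log2 change -0.96 ± 0.42 SE, limma adjusted p = 0.523). No iMSBmal1KO library reached the level of the filter on low signal there. The region entered the test through the vehicle libraries alone, so its lower order is not independent of the filter. A strong region 8786 bp from the start, chr2:92424932-92425250, was nearly equal in the groups, at 190 ± 14.2 and 186 ± 18.1 (SD, n = 4 each). Another transcript end, chr2:92411899-92412001, gave the most positive member estimate, 9.45 ± 4.75 against 13.98 ± 3.86 (SD, n = 4 each), with overlapping groups and a limma adjusted p of 0.638. The 14 Cry2 regions summed to 1912, 1550, 1764 and 1404 in vehicle and 1454, 1585, 1173 and 1480 in iMSBmal1KO, which overlapped (log2 change -0.22 ± 0.15 SE, limma adjusted p = 0.608, and -0.13 without iMSBmal1KO replicate 3).

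Ciart had the most negative estimate of the 5 genes at its start. The region chr3:95882039-95883054, which covers the promoter with 3 E-boxes, read 1113, 809, 970 and 610 with vehicle and 479, 543, 450 and 465 in the knockout. No iMSBmal1KO library reached the lowest vehicle library, and the iMSBmal1KO values were tightly grouped. The mean went from 875 ± 216 to 484 ± 40.8 (SD, n = 4 each), 44.7% lower, with a log2 change of -0.82 ± 0.20 (SE). Its unadjusted p was 4.13e-04 and its limma adjusted p over all tested regions 0.161, above the threshold. Without vehicle replicate 1, the log2 change was -0.69 and the limma adjusted p 0.379. Without vehicle replicate 4, the log2 change was -0.98 and the limma adjusted p 0.00411. The call also appeared with median-of-ratios scaling, loess scaling and limma-voom (limma adjusted p = 0.00315, 0.000633 and 0.0318), and in none of the other 14 alternatives. This region overlaps the RefSeq lncRNA gene C920021L13Rik.

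A second Ciart region, chr3:95883159-95883254, at -927 bp from the start, had nearly equal group means. It read 49.0, 45.2, 38.8 and 31.3 in vehicle and 42.4, 43.5, 29.8 and 47.7 in iMSBmal1KO, and the estimate was -0.01 ± 0.27 on the log2 scale (SE, limma adjusted p = 0.994). Summed over its 3 regions, which all lie within 1000 bp of the start, Ciart gave 1165, 858, 1019 and 650 in vehicle and 529, 595, 487 and 518 in iMSBmal1KO. The groups did not overlap, and the sum was 42.4% lower in iMSBmal1KO (log2 change -0.76 ± 0.17 SE, limma adjusted p = 0.124).

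**Figure D2:**
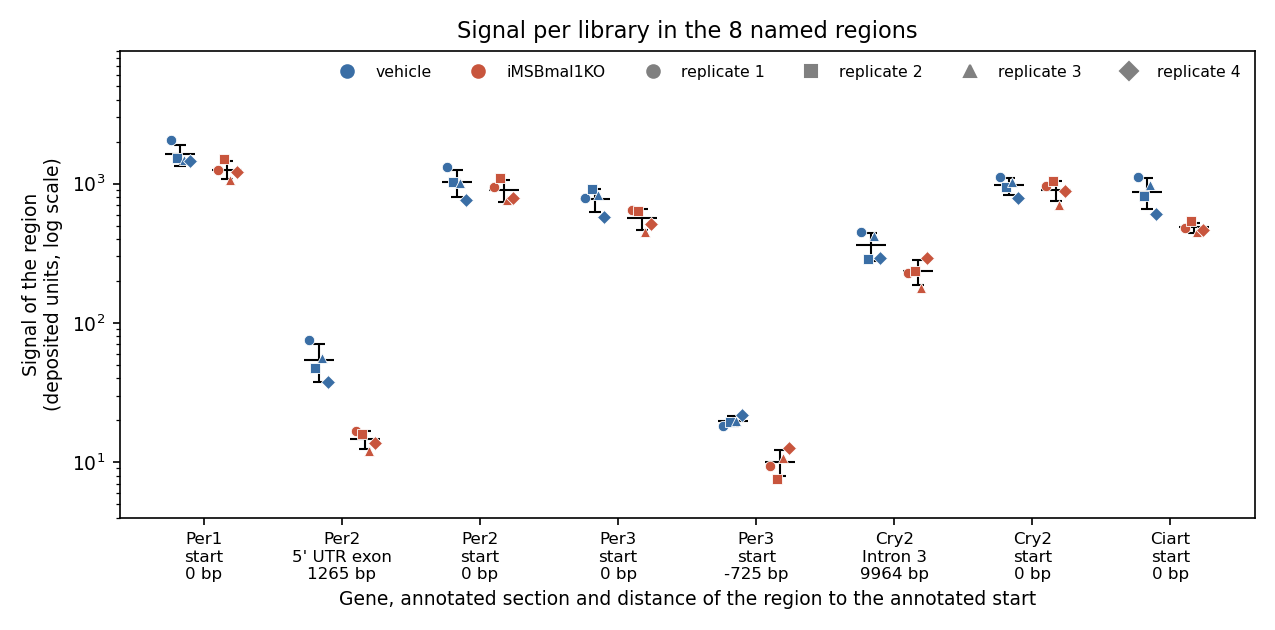
Signal of the 8 named regions in each library (vertical axis, deposited units, log scale), vehicle in blue and iMSBmal1KO in red, with the mean and SD in black. The groups do not overlap at the Per2 region 1265 bp from the start, the Per3 region at -725 bp and the Ciart start, and overlap at the other 5.

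Between the genes, the log2 changes of the sums ran from -0.76 for Ciart through -0.42 for Per3, -0.33 for Per1 and -0.28 for Per2 to -0.22 for Cry2, against a median of 0.11 over 22224 genes tested. None of the 5 passed the limma adjusted threshold, which 0.0585% of all genes passed as lower. At an unadjusted p under 0.05, Ciart, Per3 and Per1 were lower, as were 1.86% of all genes. Only the Ciart groups did not overlap, an order that 1.24% of genes showed. An interval of 2 SE reached from -1.11 to -0.42 for Ciart, from -0.74 to -0.10 for Per3, from -0.61 to -0.04 for Per1, from -0.58 to 0.02 for Per2 and from -0.51 to 0.08 for Cry2. The intervals overlap, and differences between the genes were not tested. Without vehicle replicate 4 the Ciart sum passed the threshold, with a log2 change of -0.92 (limma adjusted p = 0.00227), and the others were -0.54 for Per3, -0.40 for Per1, -0.38 for Per2 and -0.30 for Cry2. With each library left out in turn, the least negative values were -0.64 for Ciart, -0.34 for Per3, -0.25 for Per1, -0.18 for Per2 and -0.13 for Cry2.

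**Figure D3:**
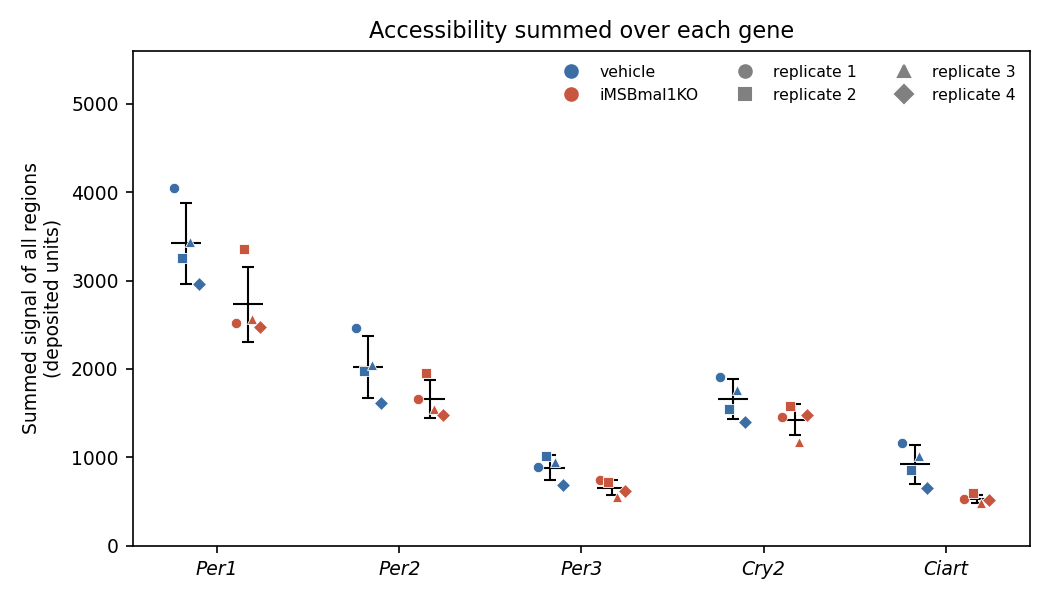
Signal summed over all regions of each gene (vertical axis, deposited units) in the 4 vehicle (blue) and 4 iMSBmal1KO (red) libraries, with the mean and SD in black. At Ciart the iMSBmal1KO values, 487 to 595, lie below the vehicle values, 650 to 1165, while the groups overlap at the other 4 genes.

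**Figure D4:**
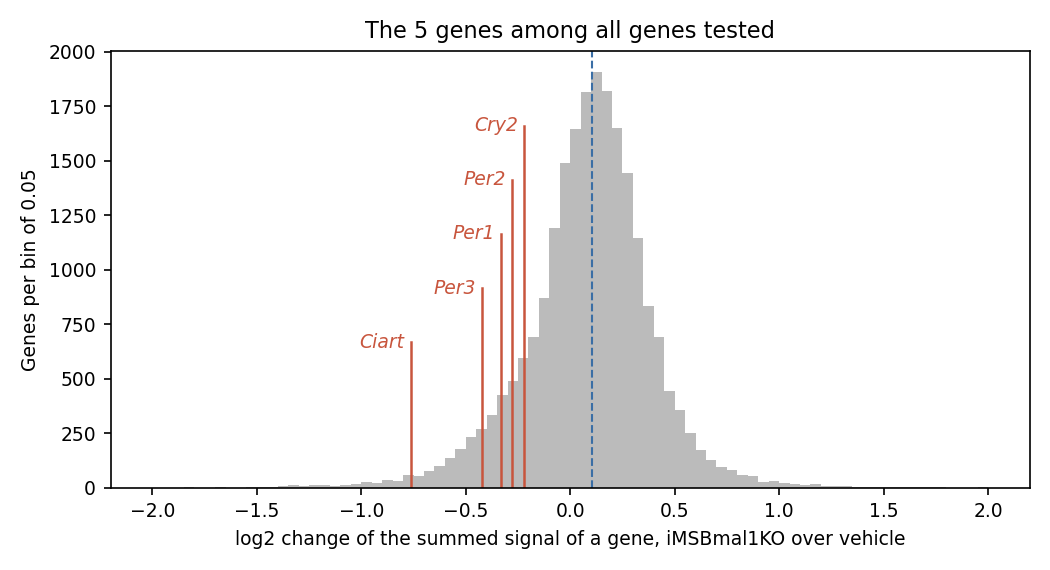
Distribution of the log2 change of the summed signal (horizontal axis) over 22224 genes (vertical axis, genes per bin of 0.05, the end bins holding the genes beyond), with the 5 genes as red lines and the median of all genes, 0.11, dashed. All 5 lines lie to the left of the median, from -0.76 to -0.22.

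Promoter sums, taken over the regions within 1000 bp of a start, gave the same order. The log2 changes were -0.76 ± 0.19 for Ciart, -0.47 ± 0.18 for Per3, -0.35 ± 0.17 for Per1, -0.21 ± 0.18 for Per2 and -0.11 ± 0.18 for Cry2 (SE), against a median of 0.15 over 17720 genes. Their limma adjusted p-values were 0.120, 0.468, 0.492, 0.633 and 0.807. Without vehicle replicate 4 the log2 changes were -0.92, -0.59, -0.42, -0.34 and -0.21 in the same order. The least negative values with a library left out were -0.64 for Ciart, -0.37 for Per3 and -0.25 for Per1. The Per2 value was -0.09 without vehicle replicate 1 and -0.14 without iMSBmal1KO replicate 3. The Cry2 value was -0.19 without iMSBmal1KO replicate 2, -0.04 without vehicle replicate 1 and 0.0066 without iMSBmal1KO replicate 3. Over all genes 0.0451% passed as lower. Ciart, Per3 and Per1 were lower at an unadjusted p under 0.05, as were 1.43% of all genes, and 0.999% had groups that did not overlap in this direction, as Ciart had. To ask whether the start moved apart from the rest of the same gene, the promoter sum was set against the sum of the other regions. The change of this log2 ratio was 0.28 ± 0.14 for Cry2, 0.15 ± 0.13 for Per2, -0.11 ± 0.11 for Per1 and -0.47 ± 0.25 for Per3 (SE), against a median of 0.10 over 9526 genes, of which 0.042% passed the threshold in either direction. None of the 4 passed (limma adjusted p = 0.510, 0.688, 0.724 and 0.543). Single libraries moved 3 of them. The Per1 ratio was -0.17 without vehicle replicate 3 and -0.04 without vehicle replicate 1. The Per2 ratio was 0.08 without iMSBmal1KO replicate 1 and 0.26 without iMSBmal1KO replicate 3, and the Per3 ratio -0.29 without iMSBmal1KO replicate 3. Without vehicle replicate 4 the ratios were 0.24, 0.11, -0.10 and -0.56 for Cry2, Per2, Per1 and Per3. Ciart has no region beyond 1000 bp. The Per1 estimate changed sign to 0.27 with a window of 2000 bp.

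**Figure D5:**
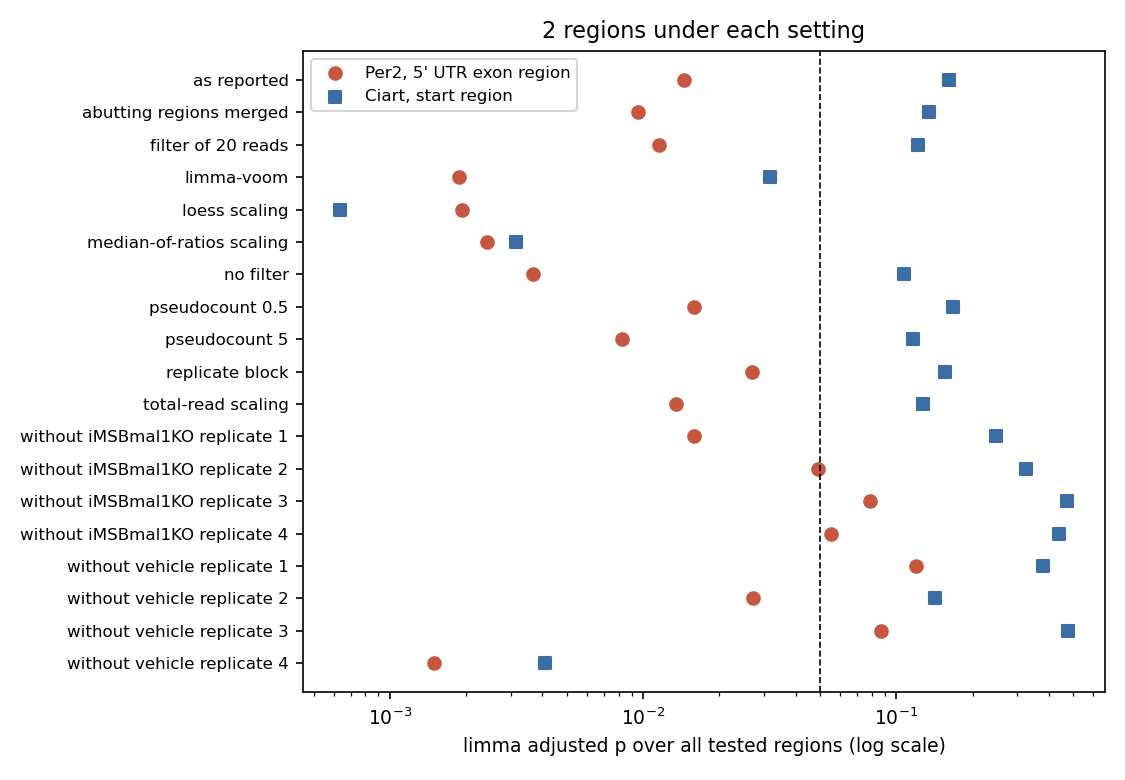
Limma adjusted p (horizontal axis, log scale) of the Per2 region 1265 bp from the start (red circles) and of the Ciart start region (blue squares) as reported and under each alternative, with the dashed line at 0.05. The Per2 region passes in 14 of 18 alternatives and the Ciart region in 4 of 18.

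Other clock genes were read from lists, whose counts stand against the shares over all tested regions, 2.63% lower and 6.59% higher at an unadjusted p under 0.05, and 0.0568% lower and 0.0312% higher past the adjusted threshold. Among E-box target genes outside the negative limb, no region of the PAR bZIP genes Dbp, Tef and Hlf or of the DEC repressors Bhlhe40 and Bhlhe41 passed the limma adjusted threshold. Dbp had 23 tested regions, of which 5 were lower and 2 higher at an unadjusted p under 0.05, with a median log2 change of -0.06. Of 7 Hlf regions 3 were lower and 0 higher, with a median of -0.22, and of 6 Tef regions 1 was lower and 0 higher, with a median of -0.41. The medians were -0.06 over 3 Bhlhe40 regions and 0.10 over 11 Bhlhe41 regions, and 0 of these had an unadjusted p under 0.05. Of 96 tested regions of 5 genes repressed by REV-ERB proteins (Arntl, Npas2, Clock, Cry1 and Nfil3), 10 passed, all higher, 9 in Npas2 and 1 in Arntl. The median over the 96 was 0.66, and the genes differed. By gene it was 1.13 over 31 Npas2 regions, 0.60 over 37 of Arntl, 0.66 over 4 of Clock, 0.46 over 9 of Cry1 and 0.16 over 15 of Nfil3. The smallest p was at the Npas2 region chr1:39192753-39192965, at -765 bp from a start, which rose from 45.4 ± 13.1 to 203 ± 25.2 (SD, n = 4 each, limma adjusted p = 2.98e-04). Cry1, the paralogue of Cry2 that belongs to this list, had a log2 change of its summed signal of 0.41 relative to the median of all genes, where Cry2 had -0.33. Neither sum passed the threshold (limma adjusted p = 0.5005 for Cry1 and 0.608 for Cry2), and the difference between them was not tested. Of 116 tested regions of 7 genes that modify or degrade PER and CRY proteins, casein kinases and ubiquitin ligases among them, 0 passed, 3 were lower and 3 higher at an unadjusted p under 0.05, and the median was 0.01.

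The genes whose summed signal followed each member most closely over the 8 libraries were found by Pearson r among 22223 genes, after the mean of each library was subtracted. They were Gm15759 (r = 0.979), Farp1 (r = 0.977) and Gm49417 (r = 0.974) for Ciart, Ap2a1, Insig1 (r = 0.987 each) and Gatad2a (r = 0.982) for Cry2, and Gm37035 (r = 0.986), Plekho2 (r = 0.984) and Paox (r = 0.958) for Per3. For Per1 they were Gm38140 (r = 0.983), Gm41168 (r = 0.977) and 4930562A09Rik (r = 0.966), and for Per2 Gm45895 (r = 0.974), 4930520M14Rik and Gm38140 (r = 0.960 each). These are descriptions over libraries that share their depth with both genes, and the highest of so many values.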

How the data were processed

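ATAC-seq was read from nuclei of gastrocnemius muscle in 8 libraries, 4 vehicle and 4 iMSBmal1KO, made with a commercial kit per the labels' protocols. The submitters' processing notes name Bowtie2, MACS2, Partek and DESeq2 and the builds mm10 and GRCm39, with no role or version. The authors deposited 1 table with a signal per region and library. In each library 98.2% to 99.8% of nonzero values were whole multiples of 1 step, within 0.02 reads, so the signal was read as counts divided by a factor per library. Not all values were whole, so no count test was run. The table names no build, and 99.9% of 22781 genes matched by symbol overlapped their RefSeq GRCm38.p6 gene. Coordinates count from 1.

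Regions were tested with limma-trend and robust empirical Bayes (limma 3.58.1, R 4.3.3) on log2(signal + 1), with group as the sole term over all 8 libraries. This scale understates changes of weak regions. A region was tested if 0.762 read equivalents per M were reached in 4 or more libraries and 15 read equivalents in total. Adjustment for multiple tests (Benjamini-Hochberg) covered all regions or genes tested, and the threshold was 0.05. The same fit was run on sums per gene, promoter sums (1000 bp) and their ratio. The fit was tested on simulated data. Tables and figures used Python 3.11.15, pandas 2.3.3 and matplotlib 3.10.9. Alternatives were other scalings, pseudocounts of 0.5 and 5, limma-voom, filters, merged regions, windows, a replicate block, a threshold of 0.01 and each library left out.

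The members and lists were chosen with earlier results of these data known. Regions named by rule were those past the threshold and, per gene, the most accessible, the one nearest the start and the one with the smallest p. Other regions named were chosen after their values were seen. Values of some listed genes, and the list results that need them, are not reported here.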

Additional observations from a re-analysis of the deposited data

Results flagged for a closer look

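Per1 had a library far from the other 3 of its group in 3 of the 44 groups of 4 values examined, where chance gives about 1 in 20. In the start region chr11:69094744-69095327, vehicle replicate 1 read 2049 where the remaining 3 held 1454 to 1518, and the distance to the nearest was 0.893 of the group's range. In the Per1 promoter sum, iMSBmal1KO replicate 2 read 2603 against 1912 to 2023, a distance of 0.839 of the range. In the sum over all Per1 regions, the same library read 3357 against 2473 to 2567, a distance of 0.893 of the range. The promoter sum is part of the sum over all regions, so these 2 are not separate.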

How the results depend on the processing

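Over 22 results with a test, 355 alternative values were computed. Direction and side of the threshold were unchanged in 328, the threshold was newly passed in 20 and lost in 4, and 3 changed sign. The sign changes were the Cry2 start region (-0.21 to 0.0042 with a library left out) and Cry2 promoter sum (-0.21 to 0.0066), both positive without iMSBmal1KO replicate 3, and the Per1 promoter ratio with a 2000 bp window (0.27).

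The number of member regions called lower was 2 with median-of-ratios, loess and limma-voom, 0 at an adjusted p under 0.01, and 0 to 2 with a library left out. Over all tested regions, 194 lower and 85 higher were called with median-of-ratios, 252 and 90 with loess, 215 and 127 with limma-voom, 26 and 10 at 0.01, and 17 to 192 and 8 to 89 with a library left out. A pseudocount of 5 gave 66 higher and no filter 89. The all-region median was 0.01 with median-of-ratios and with loess.

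Ciart's sum passed with median-of-ratios (-0.88), total reads (-0.82) and loess (-0.90), and its promoter sum with those (-0.92, -0.82 and -0.92) and limma-voom (-0.78). With a library left out, both ran from -0.92 to -0.64 and passed without vehicle replicate 2 or 4. Per3's sum passed with loess (-0.55) and its promoter sum with median-of-ratios and loess (-0.62 each). The causes were not tested.

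Same-numbered libraries deviated from their group means with correlations of -0.06 to 0.14. Libraries of different numbers were not compared in this way, and the labels state no pairing. These values therefore cannot decide whether the numbers pair the libraries. With the replicate number as a block, Ciart's sum and promoter sum passed (-0.76 each, limma adjusted p = 0.0165 and 0.0208), 67 regions were called lower, and 48 gene sums were called lower against 13 without the block. The count models, planned only for whole reads, were not run. Depth limits the weak regions most, with as few as 1 read in a library in a tested region and none in some untested ones.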
